A study of Mus musculus with 8 samples.

Results

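Lysosomal genes were followed in livers lacking *Smpd3* in hepatocytes. The 32 genes, chosen by name from a list of lysosomal hydrolases, activator proteins and membrane proteins with the regulator gene *Tfeb*, were all found among the 55416 genes of the deposited table. RNA was sequenced in 8 libraries of mouse liver in 2 groups of 4, all from mice fed for 9 weeks the diet labelled HFMCD, which the study used to induce steatohepatitis (MASH). In the knockout group (HKO, genotype Alb-cre+) the Cre recombinase removed floxed *Smpd3* in hepatocytes, where the albumin promoter is active. Whether other liver cells kept the gene was not measured. The floxed control group (FLOX, genotype Alb-cre-) carried no Cre, so effects of Cre itself cannot be told apart from those of losing *Smpd3*. Strain, age and sex are not given in the labels used here, and no library came from another diet. Separate animals are not stated for the libraries, so the p-values rest on a spread that may be technical.

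Lysosomes are acidic compartments in which proteins, glycans, glycosaminoglycans and lipids are broken down by hydrolases that work at low pH. Glycosphingolipids are dismantled there sugar by sugar down to ceramide, which acid ceramidase splits, and several of these steps need a saposin or another activator protein to lift the lipid out of the membrane. *Smpd3* encodes neutral sphingomyelinase 2, which makes ceramide from sphingomyelin outside the lysosome. In liver, lysosomal genes are expressed by hepatocytes and strongly by macrophages, and the transcription factor TFEB binds a promoter element with an E-box core to raise many of them together.

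*Smpd3* itself stood at 1.17, 3.03, 1.27 and 2.06 TPM in HKO1 to HKO4, against 8.69, 10.7, 12.5 and 6.38 TPM in FLOX1 to FLOX4. The groups did not overlap, the log2 difference was -1.89 ± 0.24 (SE), and the adjusted p was 0.0300 in limma. The gene missed the threshold when HKO1, HKO3, HKO4, FLOX1 or FLOX2 was left out, with adjusted p of 0.0505 to 0.0874 in limma. Differences are HKO minus FLOX on the log2(TPM + 1) scale, which understates those of genes with low TPM. TPM, a measure of transcript abundance, is scaled to each gene's length and each library's total and keeps no depth. The hepatocyte markers were present throughout, with *Alb* at 39755 to 47736 TPM in HKO and 42729 to 52162 TPM in FLOX libraries. FLOX4 stood apart before any comparison: 12474 to 12890 genes reached 1 TPM in the HKO libraries, 12115 in FLOX4 and 12678 to 12871 in FLOX1 to FLOX3.

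No lysosomal gene passed the test for a difference between the genotypes. Of the 32 genes, all of which passed the filter of 1 TPM in 4 libraries, 0 passed limma's threshold of 0.05 for the p adjusted by Benjamini-Hochberg, where 0.102% of the 12710 genes tested did (0.0472% higher and 0.0551% lower in HKO livers). At an unadjusted p under 0.05 the count was also 0, against 8.02% of all tested genes, and it was 0 with robust eBayes and with every other setting tried. The smallest unadjusted p was 0.194 and the smallest adjusted p 0.824, both for *Glb1*. In 0 of the 32 did the HKO and FLOX values lie apart, against 4.74% of all tested genes. The mean log2(TPM + 1), used for every count of higher and lower genes, was higher in HKO livers for 21 genes (65.6%) and lower for 11, while 64.6% of all tested genes were higher. After median-of-ratios scaling this split turned to 11 higher and 21 lower. The median log2 difference of the 32 was 0.027, beside 0.054 for all tested genes. The log2 differences ranged from -0.16 for *Mcoln1* to 0.25 for *Glb1*, with standard errors of 0.067 to 0.21.

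**Figure D1:**
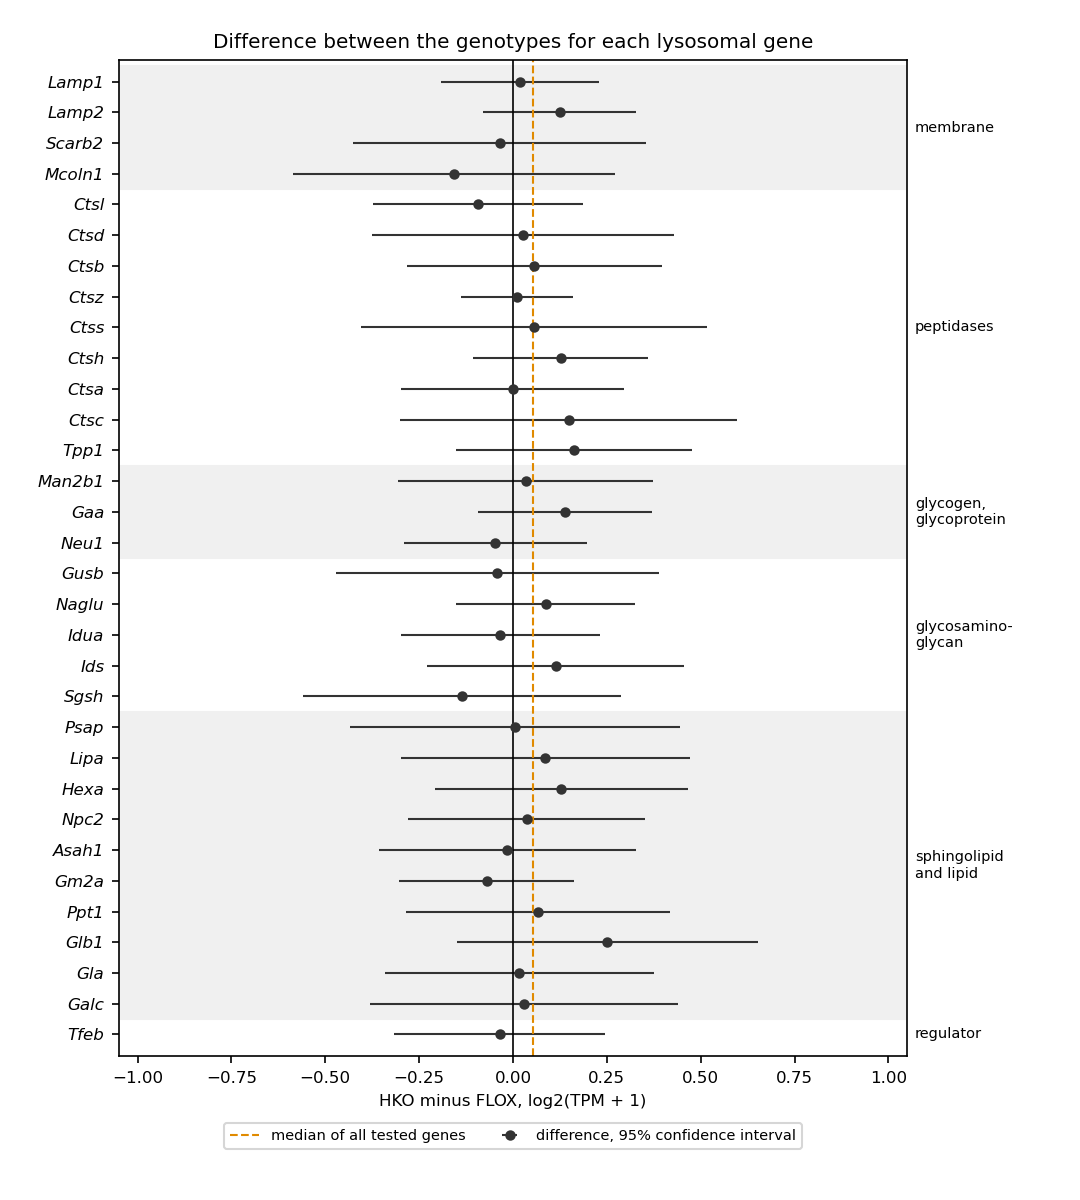
Difference in mean log2(TPM + 1), HKO minus FLOX, for each of the 32 lysosomal genes, with its 95% confidence interval from limma (n = 4 per group); the dashed line is the median of all 12710 tested genes, 0.054. Every interval includes 0, and the outermost bounds are -0.58 for *Mcoln1* and 0.65 for *Glb1*.

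The confidence intervals say how large a difference these samples leave possible. For 30 of the 32 genes the 95% interval, taken gene by gene and as a fold of TPM + 1, lay within 1.5-fold either way. The exceptions were *Glb1*, whose interval reached 1.57-fold higher in HKO livers, and *Ctsc*, whose interval reached 1.51-fold higher. On the lower side the farthest bound was 0.667-fold, for *Mcoln1*. No interval reached 2-fold in either direction. Folds of TPM + 1 understate those of TPM for genes with low TPM. With a pseudocount of 0.1 the outermost bounds were -0.72 and 0.72 on the log2 scale. A p above the threshold does not show that the levels are alike.

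The genes spanned a wide range of levels in these livers. The mean over the 8 libraries was highest for *Ctsl*, at 913 TPM, and lowest for *Sgsh*, at 3.22 TPM, a ratio of 284. Above 100 TPM were 11 genes: *Ctsl*, *Psap*, *Ctsd*, *Lamp1*, *Ctsb*, *Ctsz*, *Ctss*, *Ctsh*, *Lamp2*, *Ctsa* and *Lipa*. Below 10 TPM were 7, namely *Glb1*, *Tfeb*, *Idua*, *Gla*, *Ids*, *Galc* and *Sgsh*. The peptidases therefore made up most of the transcripts, while most glycosaminoglycan hydrolases and several glycosphingolipid hydrolases were scarce. Together the 32 genes summed to 5558, 6638, 5749.7 and 6811 TPM in HKO1 to HKO4, against 6574, 6910.0, 6523 and 4605 TPM in FLOX1 to FLOX4. FLOX4 was the lowest of all 8 libraries, and the other 3 controls lay within the upper part of the HKO range or just above it.

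**Figure D2:**
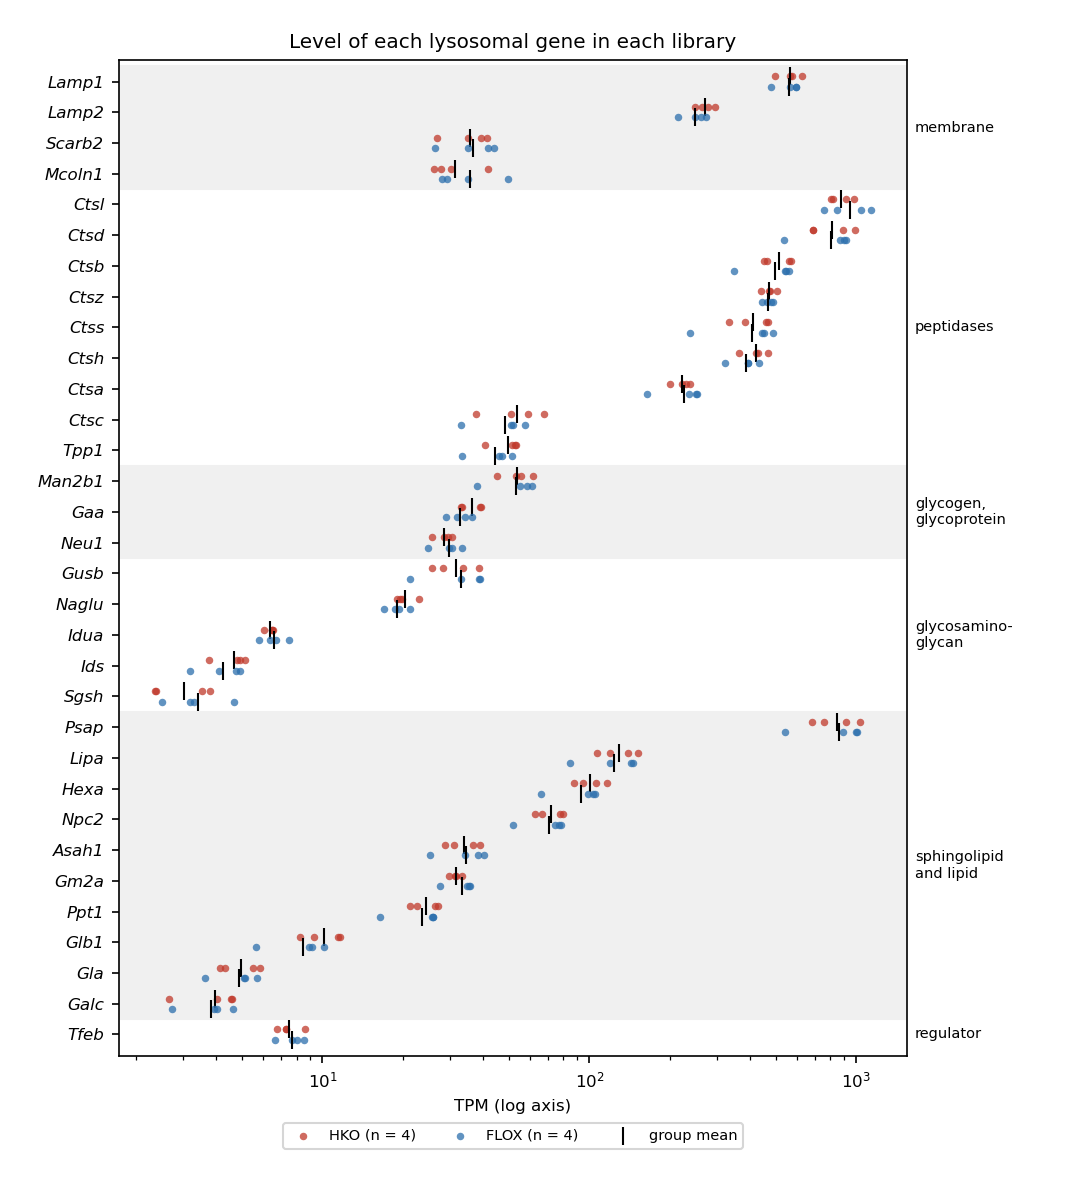
TPM of each lysosomal gene in each library on a log axis, grouped by role and ordered by mean within a role; each point is 1 library, HKO above FLOX in each row, and the bar is the group mean (n = 4 per group). The HKO and FLOX points overlap in every row, and 1 control, FLOX4, is the lowest blue point in 31 of the 32 rows.

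Among the membrane proteins, the 2 LAMP glycoproteins that coat the inner face of the lysosomal membrane were the most abundant. *Lamp1* (ENSMUSG00000031447) had 497, 566, 573 and 625 TPM in HKO1 to HKO4, against 597, 596, 563 and 478 TPM in FLOX1 to FLOX4. HKO1 and FLOX4 were the lowest and HKO4 the highest, so that the ranges overlapped, and the log2 difference was 0.019 (95% confidence interval -0.19 to 0.23). *Lamp2* (ENSMUSG00000016534) had 249, 264, 278 and 296 TPM in HKO1 to HKO4, against 274, 261, 249 and 215 TPM in FLOX1 to FLOX4, with HKO3 and HKO4 above every control and HKO1 and HKO2 within the FLOX range. Its log2 difference of 0.12 (95% confidence interval -0.079 to 0.33) had the smallest p of the 4 membrane proteins and did not pass (adjusted p = 0.833 in limma). *Scarb2* (ENSMUSG00000029426), an abundant integral protein of the lysosomal membrane, averaged 35.6 ± 6.34 TPM in HKO livers and 36.8 ± 7.86 TPM in FLOX livers (SD, n = 4 each). *Mcoln1* (ENSMUSG00000004567), a calcium channel of the lysosomal membrane, averaged 31.5 ± 6.97 TPM in HKO livers and 35.6 ± 9.94 TPM in FLOX livers (SD, n = 4 each). Its high values, 41.7 TPM in HKO3 and 49.7 TPM in FLOX2, fell 1 in each group, and its log2 difference was -0.16 (95% confidence interval -0.58 to 0.27).

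The peptidases break down proteins that reach the lysosome. Of the 9, 7 had a higher and 2 a lower mean in HKO livers, with 0 past the threshold, beside 64.6% of all tested genes higher. Their median log2 difference was 0.056, and -0.11 when FLOX4 was left out. *Ctsl* (ENSMUSG00000021477), a cysteine endopeptidase and the most abundant of the 32 genes, had 913, 982, 821 and 801 TPM in HKO1 to HKO4, against 848, 1139.6, 1038 and 760.3 TPM in FLOX1 to FLOX4. FLOX2 and FLOX3 exceeded every HKO library and FLOX4 lay below them all, and the log2 difference was -0.092 (95% confidence interval -0.37 to 0.19). *Ctsh* (ENSMUSG00000032359), a cysteine aminopeptidase, had 363, 429.8, 421 and 468 TPM in HKO1 to HKO4, against 393, 432, 394 and 323 TPM in FLOX1 to FLOX4. Its smallest p among the peptidases did not pass (log2 difference 0.13, 95% confidence interval -0.11 to 0.36, adjusted p = 0.86 in limma). The aspartic endopeptidase gene *Ctsd* (ENSMUSG00000007891) averaged 814 ± 151 TPM in HKO livers and 806 ± 179.8 TPM in FLOX livers (SD, n = 4 each), and the cysteine peptidase gene *Ctsb* (ENSMUSG00000021939) averaged 512 ± 63.0 TPM in HKO livers and 498 ± 101 TPM in FLOX livers (SD, n = 4 each). *Ctss* (ENSMUSG00000038642), the cathepsin used by antigen-presenting cells, averaged 410.5 ± 62.6 TPM in HKO livers and 406 ± 113 TPM in FLOX livers (SD, n = 4 each) and had the widest standard error of all 32, 0.21. *Ctsz* (ENSMUSG00000016256), a carboxypeptidase, was the steadiest, at 472 ± 26.1 TPM in HKO livers and 468 ± 18.0 TPM in FLOX livers (SD, n = 4 each). *Ctsa* (ENSMUSG00000017760), the carboxypeptidase that also protects β-galactosidase and neuraminidase 1, averaged 223 ± 16.5 TPM in HKO livers and 226 ± 42.0 TPM in FLOX livers (SD, n = 4 each), a log2 difference of -0.0013 (95% confidence interval -0.30 to 0.30). *Ctsc* (ENSMUSG00000030560), which activates granule proteases of immune cells, averaged 53.7 ± 12.7 TPM in HKO livers and 48.3 ± 10.6 TPM in FLOX livers (SD, n = 4 each). *Tpp1* (ENSMUSG00000030894), the tripeptidyl peptidase, averaged 49.5 ± 5.89 TPM in HKO livers and 44.5 ± 7.74 TPM in FLOX livers (SD, n = 4 each).

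Of the 3 hydrolases of glycogen and glycoproteins, 2 had a higher and 1 a lower mean in HKO livers, with 0 past the threshold. *Man2b1* (ENSMUSG00000005142), the α-mannosidase that trims glycoprotein sugars, had 44.9, 55.6, 52.9 and 61.4 TPM in HKO1 to HKO4, against 58.4, 60.8, 54.8 and 38.0 TPM in FLOX1 to FLOX4. FLOX4 was the lowest and HKO4 the highest of the 8 (log2 difference 0.033, 95% confidence interval -0.31 to 0.37). *Gaa* (ENSMUSG00000025579), the acid α-glucosidase that digests glycogen, had 33.1, 39.4, 33.5 and 38.8 TPM in HKO1 to HKO4, against 36.2, 34.1, 31.9 and 29.1 TPM in FLOX1 to FLOX4. HKO2 and HKO4 were above every control, but HKO1 and HKO3 were not, and the log2 difference of 0.14 (95% confidence interval -0.094 to 0.37) did not pass (adjusted p = 0.841 in limma). *Neu1* (ENSMUSG00000007038), the lysosomal sialidase, averaged 28.6 ± 2.05 TPM in HKO livers and 29.7 ± 3.56 TPM in FLOX livers (SD, n = 4 each).

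The glycosaminoglycan hydrolases degrade heparan, dermatan and related chains step by step. Of the 5, 2 had a higher and 3 a lower mean in HKO livers, with 0 past the threshold. *Gusb* (ENSMUSG00000025534), the β-glucuronidase, had 25.8, 33.6, 28.2 and 38.6 TPM in HKO1 to HKO4, against 38.5, 38.9, 33.2 and 21.3 TPM in FLOX1 to FLOX4. HKO4 reached the level of FLOX1 and FLOX2, while FLOX4 was the lowest of all (log2 difference -0.042, 95% confidence interval -0.47 to 0.39). *Naglu* (ENSMUSG00000001751), which removes N-acetylglucosamine from heparan sulfate, had 19.0, 23.0, 19.5 and 19.8 TPM in HKO1 to HKO4, against 19.3, 21.3, 18.8 and 16.99 TPM in FLOX1 to FLOX4. The groups interleaved, and its log2 difference of 0.087 (95% confidence interval -0.15 to 0.33) did not pass (adjusted p = 0.923 in limma). *Idua* (ENSMUSG00000033540), the α-iduronidase, averaged 6.38 ± 0.211 TPM in HKO livers and 6.57 ± 0.716 TPM in FLOX livers (SD, n = 4 each). *Ids* (ENSMUSG00000035847), the iduronate sulfatase, averaged 4.64 ± 0.61 TPM in HKO livers and 4.24 ± 0.777 TPM in FLOX livers (SD, n = 4 each). *Sgsh* (ENSMUSG00000005043), the heparan sulfamidase, averaged 3.02 ± 0.763 TPM in HKO livers and 3.42 ± 0.907 TPM in FLOX livers (SD, n = 4 each).

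The genes of sphingolipid and lipid breakdown include those that act on ceramide and other sphingolipids, though lipids and enzyme activity are not measured by these libraries. All 10 overlapped between the groups, 8 with a higher and 2 with a lower mean in HKO livers, beside 64.6% of all tested genes higher. Their median log2 difference was 0.032, and -0.093 when FLOX4 was left out. *Asah1* (ENSMUSG00000031591), acid ceramidase, had 28.9, 36.6, 31.1 and 38.9 TPM in HKO1 to HKO4, against 38.2, 40.4, 34.2 and 25.2 TPM in FLOX1 to FLOX4. The HKO range lay inside the FLOX range, and the log2 difference was -0.015 (95% confidence interval -0.36 to 0.33). *Psap* (ENSMUSG00000004207), the precursor of the saposins that present sphingolipids to their hydrolases, had 685, 918, 755 and 1036 TPM in HKO1 to HKO4, against 996, 1003, 895 and 541 TPM in FLOX1 to FLOX4. HKO4 was the highest of the 8 and FLOX4 the lowest, for a log2 difference of 0.0054 (95% confidence interval -0.43 to 0.45). *Gm2a* (ENSMUSG00000000594), the activator for ganglioside GM2, had 29.9, 31.7, 31.4 and 33.5 TPM in HKO1 to HKO4, against 35.3, 35.9, 34.9 and 27.5 TPM in FLOX1 to FLOX4. FLOX1 to FLOX3 were all above every HKO library and FLOX4 was below them all, and the log2 difference was -0.07 (95% confidence interval -0.30 to 0.16). *Hexa* (ENSMUSG00000025232), the α subunit of β-hexosaminidase A, which cleaves GM2, had 87.2, 106, 94.7 and 116 TPM in HKO1 to HKO4, against 104, 105, 98.7 and 66.0 TPM in FLOX1 to FLOX4. Its log2 difference was 0.13 (95% confidence interval -0.21 to 0.47), with the highest value in HKO4 and the lowest in FLOX4.

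Of the hydrolases that act on glycosphingolipids, *Glb1*, *Gla* and *Galc* were among the scarcest of the genes. *Glb1* (ENSMUSG00000045594), the β-galactosidase that acts on GM1, had 9.32, 11.6, 8.21 and 11.4 TPM in HKO1 to HKO4, against 10.1, 8.92, 9.16 and 5.64 TPM in FLOX1 to FLOX4. HKO2 and HKO4 were the highest of the 8 and FLOX4 by far the lowest, while HKO1 lay among the other 3 controls and HKO3 below them. Its log2 difference of 0.25 (95% confidence interval -0.15 to 0.65) was the largest of the 32 and did not pass (adjusted p = 0.824 in limma). *Galc* (ENSMUSG00000021003), the galactosylceramidase, had 2.65, 4.02, 4.57 and 4.54 TPM in HKO1 to HKO4, against 4.04, 4.64, 3.92 and 2.74 TPM in FLOX1 to FLOX4. The ranges nearly coincided (log2 difference 0.028, 95% confidence interval -0.38 to 0.44). *Gla* (ENSMUSG00000031266), the α-galactosidase that acts on globotriaosylceramide, had 4.33, 5.82, 4.13 and 5.50 TPM in HKO1 to HKO4, against 5.13, 5.69, 5.10 and 3.62 TPM in FLOX1 to FLOX4. Its values interleaved as well (log2 difference 0.017, 95% confidence interval -0.34 to 0.38).

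The remaining genes of this role, which act on other lipids or on fatty acids bound to proteins, overlapped between the groups as well. *Lipa* (ENSMUSG00000024781), the acid lipase that frees fatty acids and cholesterol from lipoprotein lipids, had 106, 139.8, 120.0 and 152 TPM in HKO1 to HKO4, against 143, 146, 119 and 85.0 TPM in FLOX1 to FLOX4. HKO4 was the highest and FLOX4 the lowest of the 8, and the log2 difference was 0.086 (95% confidence interval -0.30 to 0.47). *Npc2* (ENSMUSG00000021242), which binds cholesterol and hands it to the membrane transporter NPC1, had 62.4, 77.4, 66.3 and 80.0 TPM in HKO1 to HKO4, against 74.2, 78.5, 76.9 and 51.6 TPM in FLOX1 to FLOX4. All libraries but FLOX4 lay between 62.4 and 80.0 TPM, and the log2 difference was 0.036 (95% confidence interval -0.28 to 0.35). *Ppt1* (ENSMUSG00000028657), which removes fatty acids from palmitoylated proteins, had 21.4, 27.2, 22.6 and 26.4 TPM in HKO1 to HKO4, against 25.96, 25.97, 25.8 and 16.4 TPM in FLOX1 to FLOX4. FLOX1 to FLOX3 were close to one another and FLOX4 well below them, for a log2 difference of 0.066 (95% confidence interval -0.28 to 0.42).

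*Tfeb* (ENSMUSG00000023990), the regulator, was expressed at a low and even level. It had 7.30, 6.75, 7.30 and 8.62 TPM in HKO1 to HKO4, against 7.67, 8.02, 8.52 and 6.62 TPM in FLOX1 to FLOX4. The lowest and highest libraries were FLOX4 and HKO4, and the log2 difference was -0.036 (95% confidence interval -0.32 to 0.24). TFEB is controlled mainly by phosphorylation and entry into the nucleus, which transcript levels do not show.

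The promoters of the genes were searched for the E-box core CACGTG, the centre of the element that TFEB binds, because the genes share this known regulator. RefSeq windows from 250 bases before to 50 after the gene start (build GRCm38.p6) were matched by symbol for 29 of the 32 genes, all but *Ctsb*, *Ctsh* and *Asah1*. The core stood in the window of 10 of these 29 genes (34.5%), against 7.15% of all 32851 windows and 8.09% of the 27025 genes that have one. The 8-letter form TCACGTGA, which contains the core, stood in 4 of the 29 (13.8%), against 0.974% of all windows and 1.12% of the genes that have one. Both read the same on either strand. The genes with a core were *Ctsa*, *Ctsd*, *Ctsl*, *Gaa*, *Gla*, *Glb1*, *Lamp1*, *Mcoln1*, *Naglu* and *Sgsh*, with 17 cores among them, 16 of these before the gene start. A match is a description of letters and not a bound site.

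*Lamp1* had the most cores, 4 within the last 61 bases before its start, and the 250 bases upstream are shown with each core in capitals.
*Lamp1* chr8:13158911-13159160 (+): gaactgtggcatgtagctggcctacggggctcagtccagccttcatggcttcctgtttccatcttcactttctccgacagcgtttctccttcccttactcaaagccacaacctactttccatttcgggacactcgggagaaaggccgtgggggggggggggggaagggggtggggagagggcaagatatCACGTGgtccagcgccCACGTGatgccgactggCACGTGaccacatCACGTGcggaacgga

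The 6 matches to the longer form lay in *Ctsa*, *Ctsd*, *Gla* and *Mcoln1*, and are shown as 30 bases of the gene's strand with the core in capitals, to let the flanks be compared.
*Ctsa* chr2:164833749-164833778 (+): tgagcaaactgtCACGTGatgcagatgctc
*Ctsa* chr2:164833766-164833795 (+): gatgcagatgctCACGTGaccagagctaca
*Ctsd* chr7:142387908-142387937 (-): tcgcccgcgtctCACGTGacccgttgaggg
*Gla* chrX:134601182-134601211 (-): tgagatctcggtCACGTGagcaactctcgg
*Gla* chrX:134601215-134601244 (-): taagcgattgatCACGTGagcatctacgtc
*Mcoln1* chr8:3500462-3500491 (+): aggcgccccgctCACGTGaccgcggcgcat

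**Figure D3:**
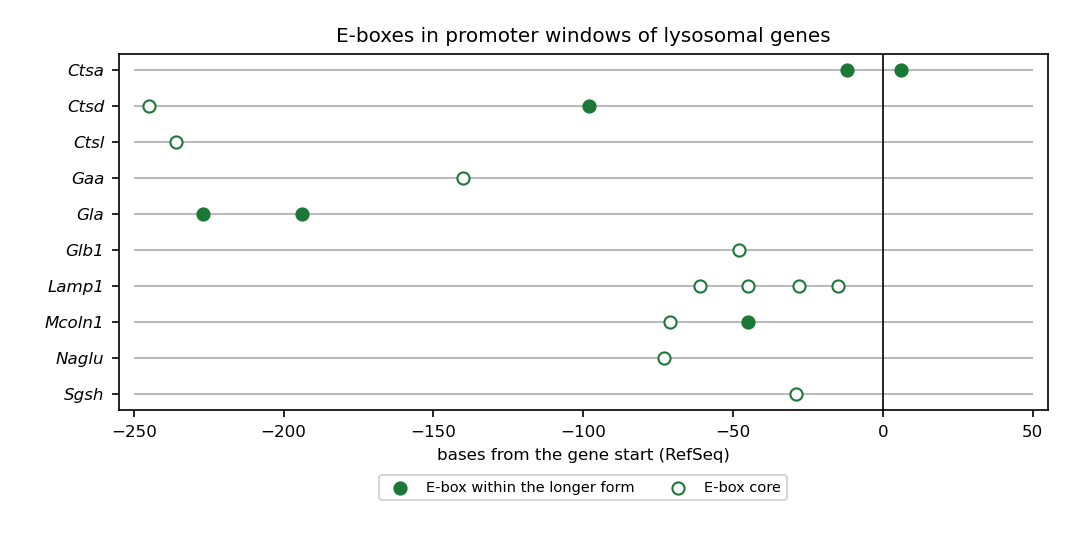
Position of each E-box core in the promoter windows of the 10 lysosomal genes that hold one, in bases from the RefSeq gene start; filled circles mark the 6 cores within the 8-letter form and open circles the others. In *Lamp1* 4 cores lie close together before the start, and in *Ctsa* 1 core lies just after it.

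The genes with and without a core spanned overlapping levels and differences. Among the 10 with a core the median log2 difference was 0.018, with a range of -0.16 to 0.25. Among the 19 without one it was 0.033, with a range of -0.070 to 0.16. Their mean levels ran from 3.22 to 913 TPM with a core and from 3.89 to 853 TPM without one.

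Within the control group, 1 library was low for nearly all of the genes. FLOX4 was the lowest of the 4 controls in 31 of the 32 genes (96.9%), against 62.6% of all tested genes, and the lowest of all 8 libraries in 28 (87.5%), against 44.4% of all tested genes. *Ctsz*, *Mcoln1*, *Galc* and *Sgsh* had their lowest value in another library. HKO1 was the lowest knockout in 24 genes (75%), against 56.6% of all tested genes. As a share of the mean of the other 3 controls, FLOX4 had a median of 67.2% over the 32 genes and of 81.8% over all tested genes. *Ctss* had the lowest share, 51.8%, at 239 TPM in FLOX4 against 445 to 487 TPM in FLOX1 to FLOX3. *Ctsz* had the highest share, 93.4%, at 445 TPM in FLOX4 against 465 to 486 TPM in FLOX1 to FLOX3. The median share was 64.9% for sphingolipid and lipid breakdown, 66.5% for the peptidases, 69.8% for the glycosaminoglycan hydrolases, 79.5% for the glycogen and glycoprotein hydrolases and 79.7% for the membrane proteins. Mitochondrial genes took 6.74% to 8.04% of the TPM in the HKO libraries, 8.92% in FLOX4 and 6.72% to 7.47% in FLOX1 to FLOX3. The 20 most abundant genes took 28.6% to 31.4% in the HKO libraries, 33.8% in FLOX4 and 29.8% to 30.8% in FLOX1 to FLOX3. The part of this difference in composition in the levels of the lysosomal genes was not tested.

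Markers of other liver cells were low in the same library. The summed level of 13 Kupffer cell markers was 803 to 1201 TPM in the HKO libraries, 629.6 TPM in FLOX4 and 1059 to 1337 TPM in FLOX1 to FLOX3. For 13 markers of recruited and lipid-associated macrophages the sums were 1934 to 3217 TPM in the HKO libraries, 1643 TPM in FLOX4 and 2610 to 2964 TPM in FLOX1 to FLOX3. The 11 endothelial markers summed to 123 to 154 TPM in the HKO libraries, 97.5 TPM in FLOX4 and 182 to 209 TPM in FLOX1 to FLOX3. The 11 stellate cell markers summed to 485 to 729 TPM in the HKO libraries, 294 TPM in FLOX4 and 602 to 625 TPM in FLOX1 to FLOX3. The 12 hepatocyte markers, in contrast, summed to 67022 to 74234 TPM in the HKO libraries and 73745 to 87207 TPM in the FLOX libraries, with FLOX4 the highest. These sums rest largely on a few very abundant genes such as *Alb*. By the mean deviation of each marker on the log2 scale, FLOX2 was the highest, at 0.24, and FLOX4 was at 0.054. Between the genotypes, 1 endothelial marker was higher and 10 were lower in HKO livers. Their median log2 difference was -0.23, and -0.50 without FLOX4. Hepatocyte markers split into 2 higher and 10 lower, recruited macrophage markers into 11 and 2, and stellate cell markers into 10 and 1. In each of these lists 0 passed the threshold, and 64.6% of all tested genes were higher.

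Of the 13 Kupffer cell markers, 11 passed the filter, with 5 higher and 6 lower in HKO livers and 0 past the threshold. The smallest adjusted p was 0.0609 in limma. An unadjusted p under 0.05 was reached by 1 marker, beside 8.02% of all tested genes. Groups did not overlap for 1 marker, beside 4.74% of all tested genes. Without FLOX4 all 11 were lower in HKO livers, with a median log2 difference of -0.25, while 48.7% of all tested genes were higher. Named from the Kupffer cell list, *Adgre1* and *Csf1r* were above 0 in every library. *Adgre1*, for F4/80, averaged 13.1 ± 4.88 TPM in HKO livers and 14.5 ± 6.54 TPM in FLOX livers (SD, n = 4 each). *Csf1r*, the receptor for the macrophage growth factor, had 31.7, 38.5, 37.3 and 45.7 TPM in HKO1 to HKO4, against 43.6, 45.4, 47.1 and 21.9 TPM in FLOX1 to FLOX4. Both were lowest in FLOX4 and next lowest in HKO1. Of the neutrophil markers, *Ly6g* was at 0.28 TPM or less in every library and listed at 0 in several. The mean deviation of the 32 lysosomal genes from their own average was -0.38 in FLOX4 on the log2 scale, -0.17 in HKO1, and -0.027 to 0.16 in the other libraries. The same measure for the Kupffer cell markers was -0.61 in FLOX4, -0.43 in HKO1, and -0.027 to 0.43 in the others. Of the 9 marker lists, the T and NK cell, B and plasma cell and neutrophil lists were also lowest in FLOX4, and the cholangiocyte list was lowest in HKO3. In whole liver, fewer cells of a type and less RNA per cell cannot be told apart, and the part of these cells in the levels of the lysosomal genes was not tested.

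**Figure D4:**
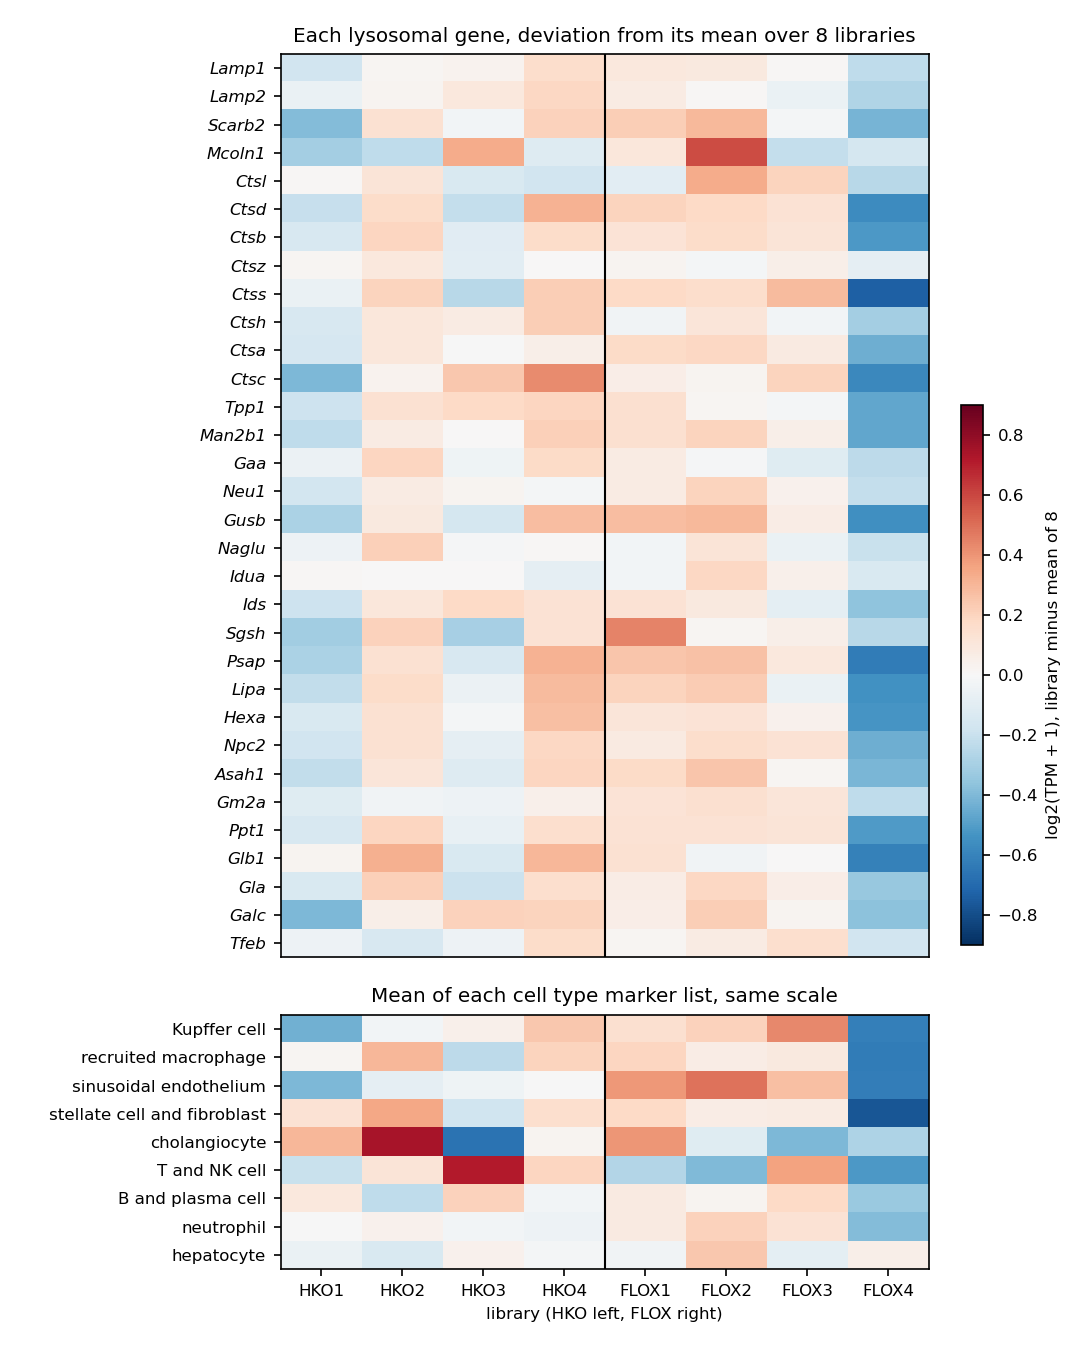
Deviation of each library from the mean of the 8 on the log2(TPM + 1) scale, for each lysosomal gene (upper panel) and for the mean of each cell type marker list (lower panel), HKO libraries left and FLOX libraries right. The FLOX4 column is below its mean for every lysosomal gene and for every marker list except hepatocyte, with means of -0.38 for the lysosomal genes and -0.61 for the Kupffer cell list.

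Leaving out that library changed the sign of 14 of the 32 differences. Without FLOX4, 7 of the 32 genes had a higher (21.9%) and 25 a lower mean in HKO livers, against 48.7% of all tested genes higher. FLOX4 was the lowest control in 31 of the 32 genes, so for those genes leaving it out had to lower the difference. The median log2 difference of the 32 became -0.097, beside -0.0057 for all tested genes. The count past the threshold was again 0, against 0.0236% of all tested genes, and the smallest adjusted p was 0.722 in limma, for *Gm2a*. *Gm2a* was then the 1 gene whose groups did not overlap, at 29.9 to 33.5 TPM in HKO livers against 34.9 to 35.9 TPM in FLOX1 to FLOX3, where 8.43% of all tested genes did not overlap. Its log2 difference was -0.16 ± 0.084 (SE) without FLOX4. *Psap*, at 0.0054 with all libraries, became -0.20 ± 0.14 (SE), and *Ctss*, at 0.056, became -0.18 ± 0.12 (SE). *Glb1*, *Gaa*, *Lamp2*, *Ctsh*, *Naglu*, *Tpp1* and *Ids* stayed higher in HKO livers. Leaving out another library could move the split the other way. Without FLOX2, 29 genes were higher and 3 lower, with 8 signs changed and a median of 0.095, beside 0.079 for all tested genes. Without HKO1 the split was 26 and 6, with 5 signs changed and a median of 0.0999, beside 0.0991.

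**Figure D5:**
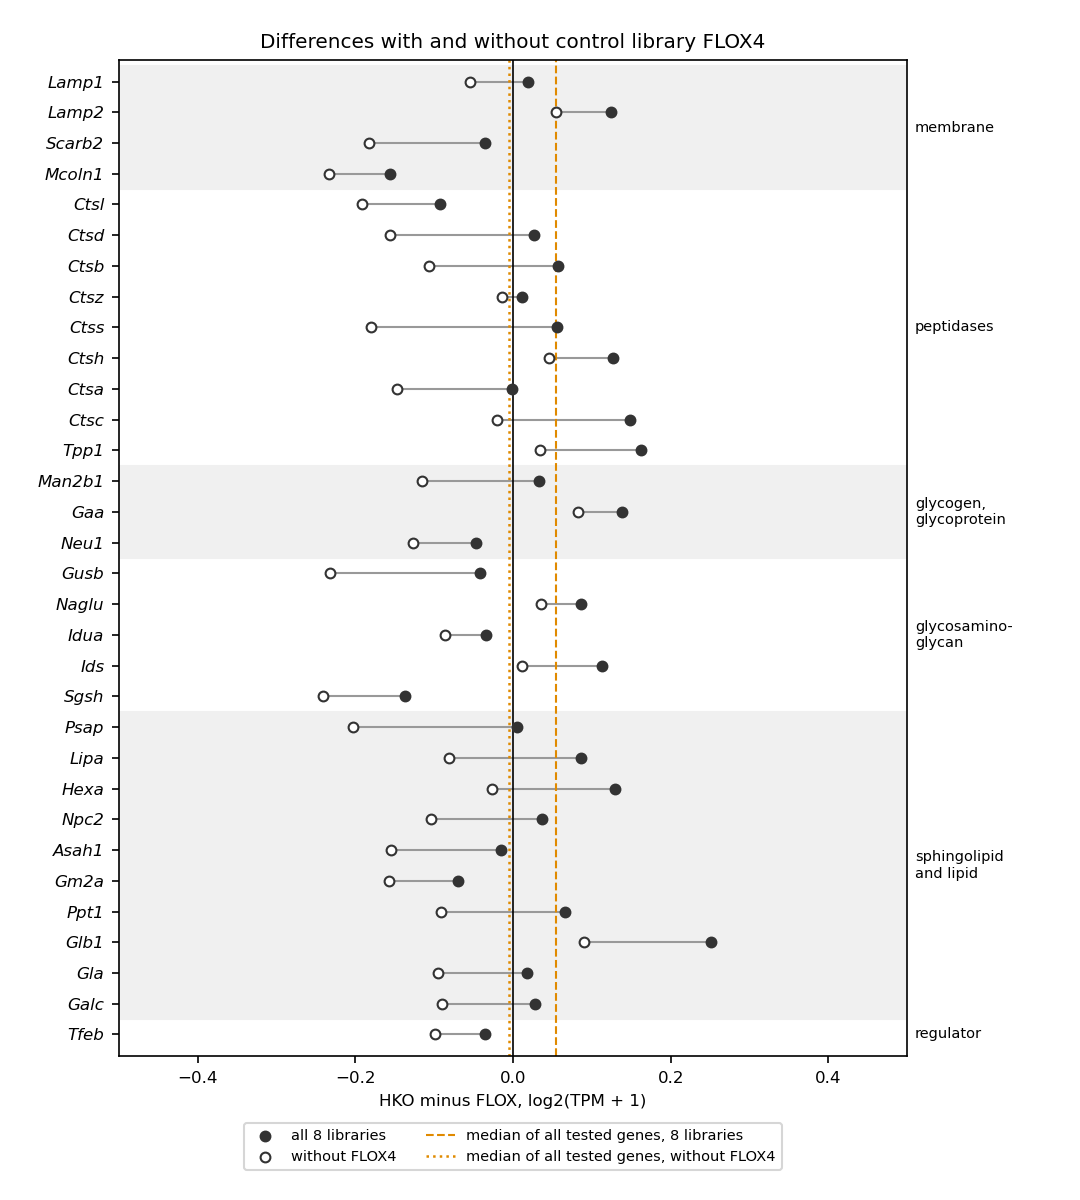
Difference in mean log2(TPM + 1), HKO minus FLOX, for each lysosomal gene with all 8 libraries (filled) and without FLOX4 (open); the lines mark the medians of all 12710 tested genes, 0.054 and -0.0057. Every gene moves to the left without FLOX4, as it must for the 31 genes where FLOX4 is the lowest control, and 7 of the 32 stay above 0.

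The rest of the lysosomal system showed no gene past the threshold either. Of 141 further genes in 6 lists, 137 were tested and 0 reached an adjusted p of 0.05 in limma, while 5 had an unadjusted p under 0.05, beside 8.02% of all tested genes. Their median log2 difference was 0.044, with 93 higher (67.9%) and 44 lower in HKO livers, beside 64.6% of all tested genes higher. Without FLOX4 the split turned to 58 higher and 79 lower, and the median to -0.036. Groups did not overlap for 5 of the 137, beside 4.74% of all tested genes: *Hgsnat*, *Ctns*, *Laptm4a*, *Gnptg* and *Lamtor2*. The values that follow are those of the 2 genes with the smallest p in each list, and none of them passed. The list medians are given with all libraries and then without FLOX4.

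Among 34 other hydrolases and activators the median log2 difference was 0.028, and -0.050 without FLOX4, and the smallest p belonged to *Dpp7* (log2 difference 0.24, adjusted p = 0.633 in limma) and *Aga* (0.21, adjusted p = 0.742 in limma), a dipeptidyl peptidase and the aspartylglucosaminidase. Among 29 other membrane proteins the median was 0.040, and -0.056 without FLOX4. *Hgsnat*, the acetyltransferase of heparan sulfate breakdown, had 27.4, 25.8, 23.4 and 23.1 TPM in HKO1 to HKO4, against 28.9, 32.4, 29.6 and 30.5 TPM in FLOX1 to FLOX4, so that every HKO library was lower, and it did not pass (log2 difference -0.28, 95% confidence interval -0.49 to -0.068, adjusted p = 0.428 in limma). *Ctns*, the cystine exporter, had 12.2, 12.6, 11.9 and 12.5 TPM in HKO1 to HKO4, against 10.5, 11.5, 9.20 and 9.64 TPM in FLOX1 to FLOX4, so that every HKO library was higher, and it did not pass either (log2 difference 0.25, 95% confidence interval 0.011 to 0.49, adjusted p = 0.605 in limma). The 17 subunits and partners of the vacuolar proton pump, which acidifies the lysosome, had a median of 0.070, and -0.014 without FLOX4, led by *Atp6ap1* (log2 difference 0.21, adjusted p = 0.758 in limma) and *Atp6v0e* (0.11, adjusted p = 0.833 in limma).

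The 10 genes of mannose 6-phosphate sorting, by which new hydrolases reach the lysosome, had a median of 0.11, and 0.014 without FLOX4, led by *Gnptg* (log2 difference 0.15, adjusted p = 0.731 in limma) and *Gga2* (0.32, adjusted p = 0.746 in limma). *Gnptg*, a subunit of the phosphotransferase that makes the sorting tag, averaged 38.5 ± 2.35 TPM in HKO livers and 34.6 ± 0.874 TPM in FLOX livers (SD, n = 4 each). The 21 tested genes around TFEB and mTORC1 had a median of 0.062, and 0.037 without FLOX4. *Tsc2*, a brake on mTORC1, averaged 27.1 ± 4.49 TPM in HKO livers and 19.7 ± 3.92 TPM in FLOX livers (SD, n = 4 each; log2 difference 0.45, 95% confidence interval 0.089 to 0.81, adjusted p = 0.475 in limma). *Lamtor2*, part of the complex that anchors mTORC1 regulators to the lysosome, had 151, 154, 154 and 155 TPM in HKO1 to HKO4, against 135, 141, 142 and 127 TPM in FLOX1 to FLOX4. All 4 HKO values lay above the controls, and the gene did not pass (adjusted p = 0.552 in limma). The 26 autophagy genes had a median of 0.031, and -0.015 without FLOX4, led by *Pik3c3* (log2 difference 0.28, adjusted p = 0.633 in limma) and *Optn* (-0.20, adjusted p = 0.687 in limma). From the list of other hydrolases, *Smpd1*, the acid sphingomyelinase of the lysosome, averaged 29.0 ± 5.19 TPM in HKO livers and 25.4 ± 3.92 TPM in FLOX livers (SD, n = 4 each). It was named for its place in the pathway and did not pass (adjusted p = 0.863 in limma).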

How the data were processed

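The authors deposited 1 table of TPM values, rounded to 2 decimals, with a column for each of the 8 libraries. Per the labels' protocols, the library kit keeps strand and starts from total RNA. RSEM 1.3.3 and the human build GRCh38.p13 are named, per the submitters' processing notes, although all identifiers belong to mouse genes. Sources used here do not give the aligner, the annotation or the strand setting. Values shared by overlapping genes are therefore uncertain: in GENCODE M21, exons of 12 of the 32 genes overlap those of another gene, 10 of them on the opposite strand. These are *Ctsa*, *Ctsb*, *Ctsd*, *Ctsl*, *Ctsz*, *Galc*, *Glb1*, *Hexa*, *Idua*, *Lamp1*, *Ppt1* and *Sgsh*, with *Glb1* sharing exons with *Tmppe*.

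Symbols were matched for 52083 of 55416 identifiers. A gene was tested if 4 or more libraries reached 1 TPM, on log2(TPM + 1), with a pseudocount of 1, in limma 3.58.1 under R 4.3.3 (lmFit, eBayes with trend), with p-values adjusted over all 12710 genes. The script was tested on simulated data. No batch is named in the labels. Members, lists and the rule for named genes were chosen with earlier results of these data known. Values in every library are given for the most abundant gene and the gene of smallest p in each role, for sphingolipid and lipid breakdown and for *Tfeb*, and other members are given by mean. Of each wider list the 2 genes of smallest p are named, with levels for some and otherwise the log2 difference and adjusted p; *Adgre1*, *Csf1r* and *Smpd1* were added later. Alternatives were other pseudocounts, filters and scalings, robust eBayes, a block for the replicate number, and each library left out in turn.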

Additional observations from a re-analysis of the deposited data

Results flagged for a closer look

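A single library lay far from the other 3 of its group for 9 of the 32 lysosomal genes and for their summed level, by Dixon's criterion on its gap to the nearest value over the range of the group. Over the 74 groups of 4 values examined chance gives about 1 in 20, and 8 of the 10 concerned FLOX4. In FLOX4 the TPM was 348 for *Ctsb*, 538 for *Ctsd*, 239 for *Ctss*, 66.0 for *Hexa*, 27.5 for *Gm2a*, 51.6 for *Npc2* and 16.4 for *Ppt1*, each below FLOX1 to FLOX3. The summed TPM of the 32 genes in FLOX4 was 4605, against 6523 to 6910 in FLOX1 to FLOX3. *Tpp1* was low in HKO1, at 40.8 TPM against 51.3 to 53.3 TPM in the other HKO libraries. *Idua* was low in HKO4, at 6.06 TPM against 6.46 to 6.50 TPM in the other HKO libraries, a gap of under 1 TPM.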

How the results depend on the processing

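No lysosomal gene and no gene of the wider lists passed the threshold under any setting, with all libraries or with any 1 left out. The log2 difference of *Smpd3* stayed between -2.06 and -1.76 when a library was left out. It was -1.89 without a filter (adjusted p = 0.167 in limma) and with the replicate block (adjusted p = 0.0818 in limma), and no longer passed in either. It also did not pass without HKO1, HKO3, HKO4, FLOX1 or FLOX2. The number of genes past the threshold, 13, became 8 with a pseudocount of 0.1, 6 with a pseudocount of 5, 0 without a filter, 20 after rescaling without mitochondrial and the 20 most abundant genes, and 0 with the replicate block. It lay between 0 and 16 with 1 library left out. The cause was not tested.

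The count of lysosomal genes whose groups did not overlap became 1 after median-of-ratios scaling, where *Neu1* was the gene, and lay between 0 and 1 with a library left out. The median log2 difference of the 32 became -0.028 after median-of-ratios scaling, which moved the median of all tested genes to 0.0036, and lay between -0.097 and 0.10 with a library left out. That scaling left 11 genes higher and 21 lower in HKO livers, and rescaling left 17 and 15. With a mean filter of 5 TPM, 28 of the 32 genes were tested. All 508 values of single genes under other settings moved by less than 1 SD, which says little about stability. Robust eBayes, the replicate block and the filters leave a log2 difference unchanged. Leaving out 1 of 4 libraries cannot move it by a full SD. Signs did change, for 14 of the 32 genes without FLOX4.

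Same-numbered HKO and FLOX libraries did not deviate together (r = -0.15, 0.031, -0.15 and -0.20 across genes for numbers 1 to 4), so the block shares only a number. In the block fit the smallest adjusted p of the 32 genes was 1.00 in limma. Depth is not given by TPM, so counting error could not be set beside the 7 genes below 10 TPM.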

Other observations

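Within the knockout group the lysosomal genes fell into a shared order, chosen for mention after the values were seen. HKO2 and HKO4 both exceeded HKO1 and HKO3 in 20 of the 32 genes (62.5%), against 33.7% of all tested genes. These included 9 of the 10 genes of sphingolipid and lipid breakdown, all except *Galc*, and 5 of the 9 peptidases, *Ctsd*, *Ctsb*, *Ctss*, *Ctsh* and *Ctsa*, but 1 of the 4 membrane proteins, *Scarb2*. The mean deviation of recruited and lipid-associated macrophage markers was 0.020, 0.30, -0.23 and 0.20 in HKO1 to HKO4 on the log2 scale, and that of the 32 lysosomal genes was -0.17, 0.10, -0.027 and 0.15. The Kupffer cell markers did not follow that order, at -0.43, -0.027, 0.048 and 0.24. The order was not particular to these genes. By mean deviation it also held for other lysosomal hydrolases, other membrane proteins, proton pump, mannose 6-phosphate sorting, and TFEB and mTORC1 regulation, but not for autophagy. It held as well for the stellate cell markers, and for the median-of-ratios scaling factors, at 0.915, 1.08, 1.03 and 1.07 in HKO1 to HKO4. The labels give nothing that sets HKO2 and HKO4 apart.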
